A study of Mus musculus with 2 samples.

Results

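The proteasome is the protease of cytoplasm and nucleus that degrades proteins tagged with ubiquitin. The genes described here are the mouse protein-coding genes whose symbols start with Psm, a letter from a to g and a digit, leaving out Psmb8 and Psmb9. In the GENCODE M21 annotation of mm10, 48 of 21938 protein-coding genes matched. Of these, 47 encode subunits, activators, an inhibitor or assembly chaperones, and Psmc3ip, a partner of meiotic recombinases, only shares the prefix. Accessible chromatin was measured by DNase-seq, in which the enzyme DNase I cuts open DNA, in the spleens of 2 male mice of strain B6CASTF1/J aged 2 months. B6CASTF1/J mice are first-generation hybrids of C57BL/6J and CAST/EiJ, carry no engineered allele and received no treatment that the labels name. The labels number the males separately and give them biological replicate numbers 1 and 2, here animal 1 and animal 2, but list both under 1 donor identifier. There is 1 group and no contrast between conditions, so all values are descriptions and no test was made.

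The core of the proteasome is a barrel of alpha and beta subunit rings, the 20S particle, whose catalytic beta subunits cut peptide bonds inside the barrel. The 19S particle caps it, binds ubiquitin, removes the tag and unfolds the substrate with a ring of ATPases, while the activators encoded by Psme genes open the barrel in another way. In lymphoid and inflamed tissue the catalytic subunit Psmb10 takes the place of Psmb7. Cortical thymic epithelium uses Psmb11 in place of Psmb5, and male germ cells use the alpha subunit Psma8. When proteasome activity falls, the transcription factor NFE2L1 is known to raise most subunit genes through antioxidant response elements in their promoters.

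A promoter reached 1 kb to either side of every annotated transcription start site (TSS) of a gene. Its height was that of the strongest peak touching it in the longer of the 2 deposited peak lists of a library. Height is the authors' signal for the density of DNase cuts. A footprint is a short stretch inside a peak that the authors called as protected from cutting. The stretches below are the DNA just before the TSS of the 8 genes with the highest promoters, outside annotated exons, that held a match to a searched motif in a footprint of both animals. They are shown because the footprint results turn on the letters that lay under the footprints. They come from the reference assembly GRCm38.p6, which has the sequence of mm10 and derives from C57BL/6J, so the CAST/EiJ allele may differ. Each is written 5' to 3' on the strand of its gene, and capitals mark the matches in footprints of both animals. Psmb3 is at chr11:97703299-97703398 on the plus strand, Psmb1 at chr17:15499752-15499851 on the minus strand, Psmc4 at chr7:28050102-28050201 on the minus strand and Psmc3 at chr2:91053934-91054008 on the plus strand. Psmb2 is at chr4:126677530-126677629 on the plus strand, Psmd11 at chr11:80428515-80428614 on the plus strand, Psmg1 at chr16:95990961-95991060 on the minus strand and Psmc3ip at chr11:101095437-101095536 on the minus strand.
Psmb3: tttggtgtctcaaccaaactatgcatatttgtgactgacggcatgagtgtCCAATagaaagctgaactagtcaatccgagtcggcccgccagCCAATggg
Psmb1: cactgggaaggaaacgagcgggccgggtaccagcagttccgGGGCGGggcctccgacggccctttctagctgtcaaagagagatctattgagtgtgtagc
Psmc4: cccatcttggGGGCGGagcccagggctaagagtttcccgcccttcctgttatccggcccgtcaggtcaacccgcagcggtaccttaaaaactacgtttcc
Psmc3: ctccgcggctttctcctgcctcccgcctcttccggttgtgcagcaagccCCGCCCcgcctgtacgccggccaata
Psmb2: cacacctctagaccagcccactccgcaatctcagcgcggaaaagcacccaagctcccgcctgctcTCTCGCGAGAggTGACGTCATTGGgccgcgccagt
Psmd11: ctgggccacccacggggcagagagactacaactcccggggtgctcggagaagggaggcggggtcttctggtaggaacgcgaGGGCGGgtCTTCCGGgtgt
Psmg1: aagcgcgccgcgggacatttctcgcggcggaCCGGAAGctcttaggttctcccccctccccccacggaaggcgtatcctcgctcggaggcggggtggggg
Psmc3ip: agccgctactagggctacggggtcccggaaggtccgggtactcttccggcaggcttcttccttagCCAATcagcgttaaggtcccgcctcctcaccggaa

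The footprints lay over different letters from gene to gene. In Psmb3, a beta subunit without catalytic activity, the capitals are a pair of CCAAT boxes (CCAAT, bound by the trimeric factor NF-Y) at -48 and -6 bp from the TSS. In Psmb1, Psmc4 and Psmc3 they are GC boxes (GGGCGG, the site of SP and KLF factors). Psmb2 held matches for ZBTB33 (TCTCGCGA), CREB (TGACGTCA) and a CCAAT box on the reverse strand, and the CREB and CCAAT letters overlap. Psmd11 and Psmg1 held ETS matches (CCGGAAG, a core shared by ETS factors such as GABPA), at -8 and -66 bp. Psmd11 held a GC box beside it.

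Another 4 stretches were chosen after the values were seen. Psmb5, Psmb6 and Psmd9 are shown because they held an antioxidant response element (TGACNNNGC, here ARE) in a footprint of both animals. Psmb10 is shown as the immune subunit. Psmb5 is at chr14:54618023-54618122 on the minus strand, Psmb6 at chr11:70525267-70525366 on the plus strand, Psmd9 at chr5:123228090-123228189 on the plus strand and Psmb10 at chr8:105937039-105937138 on the minus strand.
Psmb5: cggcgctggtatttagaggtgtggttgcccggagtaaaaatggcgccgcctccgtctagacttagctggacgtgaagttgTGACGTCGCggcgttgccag
Psmb6: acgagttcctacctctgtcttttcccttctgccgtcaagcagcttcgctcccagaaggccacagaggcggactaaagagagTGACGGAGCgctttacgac
Psmd9: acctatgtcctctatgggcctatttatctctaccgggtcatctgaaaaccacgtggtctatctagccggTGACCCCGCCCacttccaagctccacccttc
Psmb10: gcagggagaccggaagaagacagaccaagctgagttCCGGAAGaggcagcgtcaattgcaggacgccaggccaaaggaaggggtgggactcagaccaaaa
The ARE matches of Psmb5, Psmb6 and Psmd9 are centred at -16, -15 and -27 bp from the TSS, and that of Psmd9 shares letters with a GC box. In Psmb10 the capitals are an ETS match at -61 bp.

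A promoter peak was present in both animals for 45 of the 48 genes, and the same 3 genes had none in either. The background over all protein-coding genes was 59.8%. The 7 alpha ring genes, the 3 constitutive catalytic and 4 non-catalytic beta genes, Psmb10, the 6 ATPases and the 11 non-ATPase 19S subunits were all open in both animals. So were the 7 assembly chaperones, the inhibitor Psmf1, Psmc3ip and 4 of the 5 activators. The closed genes were Psma8, the germ cell alpha subunit, Psmb11, the thymus subunit, and Psme2b, a gene named as a copy of the activator Psme2. The spleen is a mixture of cells, so fewer open cells and less accessibility per cell cannot be told apart. No interval with a false discovery rate (FDR) under 0.05 in the authors' cut-rate files lay within 1 kb of a TSS of those 3 genes in either animal. Such an interval was found at 2.65% of all 8465 genes without a promoter peak in animal 1 and at 2.87% of 8210 in animal 2. How the authors treated reads that map to near-identical copies is not given in the sources used here, which bears on Psme2b.

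Psmb11 lies beside its constitutive counterpart. Its TSS is 3411 bp from that of Psmb5 on chromosome 14, and the nearest peak, with its midpoint 3392 bp away in animal 1 and 3402 bp in animal 2, was the Psmb5 promoter peak. That peak had a height of 3.98 in animal 1 and 5.31 in animal 2. The surroundings of Psmb11 were otherwise rich in peaks, with 16 in animal 1 and 15 in animal 2 between 1 and 50 kb away. Around Psma8 the nearest peaks were low, at 0.480 and 0.482, and lay 20876 and 5003.5 bp from its start. For Psme2b they were at 0.480 and 0.910 and lay 32365.5 and 43919 bp away.

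Markers of the tissues that use Psmb11 and Psma8 gave a mixed picture. Of 5 thymic epithelium markers, 3 had a promoter peak in both spleens, Ccl25, Aire and Prss16, and Foxn1, the factor that defines thymic epithelium, had none. Of 5 male germ cell markers, Dazl and Tex14 had one, while Ddx4, Sycp3 and Sycp1 had none. All 5 B cell and 4 of 5 T cell markers were open in both animals, against 3 of 5 macrophage, 1 of 5 erythroid and 2 of 5 stromal markers and 1 of 5 hepatocyte markers. The share over all protein-coding genes was 59.8%. Median heights of the markers open in both animals were 9.36 and 8.96 for B cells and 2.26 and 1.88 for T cells. They were 0.680 and 0.441 for macrophages and 1.11 and 1.71 for stroma. The 1 erythroid marker stood at 0.752 and 1.22, and the 1 hepatocyte marker at 0.430 and 0.462. Csf1r had a peak in animal 1 only, and Klf1 and Ank1 in animal 2 only. B cells are the most abundant lymphocytes of the spleen. The macrophage, erythroid and stromal markers are also of spleen cells, and among them Adgre1, Gata1, Hba-a1, Nkx2-5, Pdgfrb and Ccl21a had no promoter peak in either animal.

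**Figure D1:**
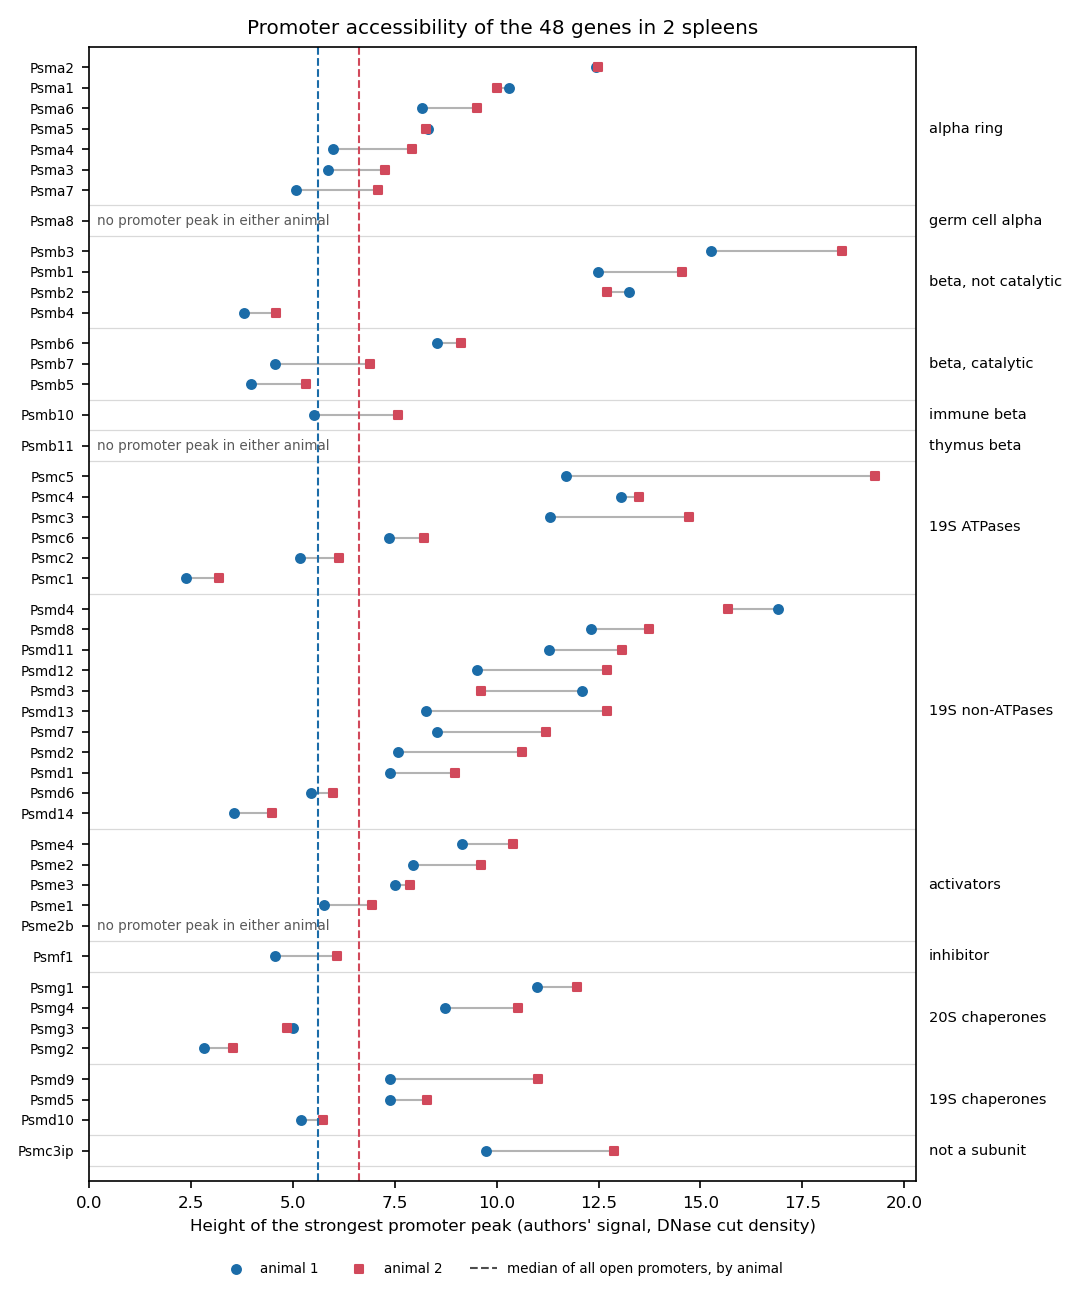
Height of the strongest promoter peak of each of the 48 genes (x axis, authors' signal) in animal 1 (circles) and animal 2 (squares), grouped by role, with a grey line joining the animals. Dashed lines are the medians over all open protein-coding promoters, 5.62 in animal 1 and 6.63 in animal 2, and Psma8, Psmb11 and Psme2b had no peak.

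Where they were open, most promoters of proteasome genes were above the median of all open promoters, 32 of 45 in animal 1 and 35 of 45 in animal 2. The lowest, Psmc1, was at percentile 26.8 and 29.9 of open promoters. The median height of the proteasome promoters was 7.94 in animal 1, against 5.62 over 13473 open protein-coding genes, and 9.53 in animal 2, against 6.63 over 13728. The mean of the animals' medians was 8.73 ± 1.12 (SD, n = 2) for the proteasome genes and 6.12 ± 0.715 (SD, n = 2) for all genes. Within each animal the ratio of the medians was 1.41 and 1.44. It varied with the peaks used, from 1.29 in the shorter peak list to 1.71 when the peak nearest to a TSS was taken. The proteasome median was 8.73 in the shorter list too, so there the ratio moved only with the median of all genes. With the nearest peak the proteasome median was 8.32. The difference between proteasome genes and all genes was larger in the lower part of the distribution. The lower quartiles were 5.44 and 6.94 for proteasome genes against 2.09 and 2.33 for all, and the upper quartiles 10.98 and 12.7 against 9.94 and 11.6. No open proteasome promoter was below 2.36 in animal 1 or 3.19 in animal 2, and none was above 16.9 or 19.3, while the highest promoters of the genome reached 57.9 and 61.7.

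**Figure D2:**
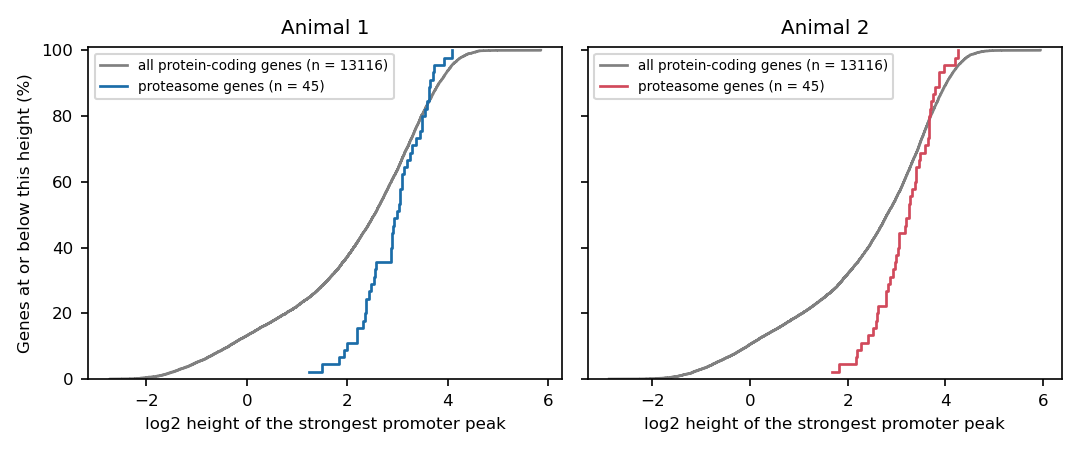
Cumulative share of genes (y axis, percent) by log2 height of the strongest promoter peak (x axis) in animal 1 (left) and animal 2 (right), for the 45 proteasome genes in colour and all 13116 protein-coding genes open in both animals in grey. The coloured curves start far to the right of the grey ones and meet them near the upper end.

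The subunit classes overlapped widely. The median height of the 14 core genes, without Psma8, Psmb10 and Psmb11, was 8.25 in animal 1 and 8.69 in animal 2, that of the 17 subunits of the 19S particle 8.52 and 11.2. The 4 open activators had medians of 7.72 and 8.75, and the 7 chaperones 7.37 and 8.30. Mean heights of single genes ran from 4.20 to 16.9 in the core, from 2.78 to 16.3 in the 19S particle, from 6.35 to 9.78 among the activators and from 3.17 to 11.5 among the chaperones. The spread within a class was thus wider than the distance between classes.

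Inside the core, the medians of the alpha ring were close in the animals. Its 7 genes, which form the outer rings and the gate, ran from 5.09 to 12.4 in animal 1 and from 7.09 to 12.5 in animal 2, with medians of 8.18 and 8.26 (mean 8.22 ± 0.0586, SD, n = 2). The non-catalytic beta genes had medians of 12.9 and 13.6 (mean 13.3 ± 0.539, SD, n = 2), carried by Psmb1, Psmb2 and Psmb3, while Psmb4 stood at 3.80 and 4.59. The constitutive catalytic genes were lower, with medians of 4.57 and 6.88 (mean 5.73 ± 1.64, SD, n = 2).

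The catalytic genes differed among themselves. Psmb5, the chymotrypsin-like subunit, had a promoter height of 3.98 in animal 1 and 5.31 in animal 2 (mean 4.64 ± 0.943, SD, n = 2). Psmb6, the caspase-like subunit, reached 8.52 and 9.13 (mean 8.82 ± 0.425, SD, n = 2). Psmb7, the trypsin-like subunit, had 4.57 and 6.88 (mean 5.73 ± 1.64, SD, n = 2). Psmb6 was the highest of the 3 in both animals and its lower value was above both values of each other gene. Psmb10, the inducible subunit that replaces Psmb7, had a peak of 5.52 in animal 1 and 7.57 in animal 2 (mean 6.55 ± 1.45, SD, n = 2). Its values overlapped those of Psmb7 when the animals were pooled, and it was the higher gene within each animal. The Psmb10 peak lay on chromosome 8 from 105936981 to 105937220, at a start that is not its most 5' annotated one. A separate peak within 1 kb of the most 5' start, but centred close to another annotated start, was weaker, 2.61 and 2.54. With the most 5' TSS only, or the peak nearest to a TSS, the mean height of Psmb10 was 2.58.

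The highest promoters belonged to different parts of the particle. Psmb3, at chromosome 11 from 97703221 to 97703440, stood at 15.2 in animal 1 and 18.5 in animal 2 (mean 16.9 ± 2.28, SD, n = 2). Psmd4, a ubiquitin receptor of the 19S particle on chromosome 3, reached 16.9 and 15.7 (mean 16.3 ± 0.878, SD, n = 2). Psmc5, an ATPase of the 19S base on chromosome 11, reached 11.7 and 19.3 (mean 15.5 ± 5.37, SD, n = 2). The order of these 3 was not the same in the animals, since Psmd4 led in animal 1 and Psmc5 in animal 2. The Psmc5 peak is shared with the start of Ftsj3, so its height belongs to both starts.

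The lowest open promoters also came from several groups. Psmc1, another ATPase of the base, had a height of 2.36 in animal 1 and 3.19 in animal 2 (mean 2.78 ± 0.585, SD, n = 2). Psmg2, a chaperone of core assembly, had 2.81 and 3.52 (mean 3.17 ± 0.506, SD, n = 2). Psmd14, the deubiquitinase of the 19S lid, had 3.56 and 4.48 (mean 4.02 ± 0.651, SD, n = 2). Their order was the same in both spleens. Genes whose products sit in the complex in equal numbers thus had promoters of unequal height: the 6 ATPases alone spanned 2.36 to 13.04 in animal 1 and 3.19 to 19.3 in animal 2, around medians of 9.33 and 10.9. The 11 non-ATPase subunits spanned 3.56 to 16.9 and 4.48 to 15.7, around 8.52 and 11.2.

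The activators had moderate promoters, except for the closed Psme2b. Psme1, which with Psme2 forms the interferon-inducible ring of the cytoplasm, had a height of 5.76 in animal 1 and 6.94 in animal 2 (mean 6.35 ± 0.834, SD, n = 2). Psme2 had 7.94 and 9.63 (mean 8.78 ± 1.20, SD, n = 2). That strongest peak lay -538 and -558 bp from the Psme2 start and is shared with the divergent gene Rnf31. A separate peak at the Psme2 start itself had heights of 4.78 and 4.74, a mean of 4.76. The most 5' starts of Psme1 and Psme2 are 12990 bp apart on chromosome 14.

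Psme3, the nuclear activator, had 7.51 in animal 1 and 7.88 in animal 2 (mean 7.69 ± 0.261, SD, n = 2). Psme4, the large single-chain activator, had 9.16 and 10.4 (mean 9.78 ± 0.877, SD, n = 2) and was the highest activator in both animals. By the strongest peak, the inhibitor Psmf1 stood below all 4 open activators, at 4.56 and 6.08 (mean 5.32 ± 1.08, SD, n = 2). Against the separate peak at the Psme2 start, 4.78 and 4.74, Psmf1 was lower in animal 1 and higher in animal 2. Psmc3ip had 9.75 and 12.9 (mean 11.3 ± 2.21, SD, n = 2), inside the range of the true subunits.

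The assembly chaperones were open as well. Those of the core (Psmg1 to Psmg4) had medians of 6.86 and 7.69, and those of the 19S base (Psmd5, Psmd9 and Psmd10) 7.37 and 8.30. Psmg1 was the highest chaperone and Psmg2 the lowest, by the mean of the animals. The remaining genes of the pathway, from a list of 33 symbols of which 29 were found, were open in both animals without exception, with medians of 8.29 and 10.5. Among them Nfe2l1 stood at 15.8 and 18.4 and Nfe2l2, the related stress factor, at 17.9 and 20.04. Nfe2l2 was above every proteasome gene in both animals. Pomp, the maturation factor of the core, had 6.14 and 7.26, and Adrm1, a ubiquitin receptor, 11.9 and 12.5. The list ran from Ubqln2, a ubiquitin shuttle on chromosome X, at 1.98 and 2.35 to the shuttle Rad23b at 23.2 and 26.02.

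Proteasome promoters differed between the animals by about as much as other promoters did. The median log2 ratio of height, animal 2 over animal 1, was 0.27 for the 45 genes (SD 0.21 across genes) and 0.27 for all 13116 genes open in both (SD 0.29). The height was greater in animal 2 for 39 of 45 genes and for 11198 of 13116. No proteasome gene was over 2-fold from the median ratio of all genes, against 0.587% of all 13116. Within 1 SD of that median were 36 of 45, or 80%, against 73.9% of all genes, so these shares were near the background. The genes farthest above the median were Psmc5 with a log2 ratio of 0.72, Psmd13, a lid subunit, with 0.62 and Psmb7 with 0.59. Those farthest below were Psmd3, another lid subunit, with -0.33, Psmd4 with -0.11 and Psmb2 with -0.06. Psmd13 stood at 8.27 in animal 1 and 12.7 in animal 2, Psmd3 at 12.09 and 9.62 and Psmb2 at 13.2 and 12.7. The strongest peaks of the animals overlapped for all 45 genes, as they did for 12537 of the 13116.

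**Figure D3:**
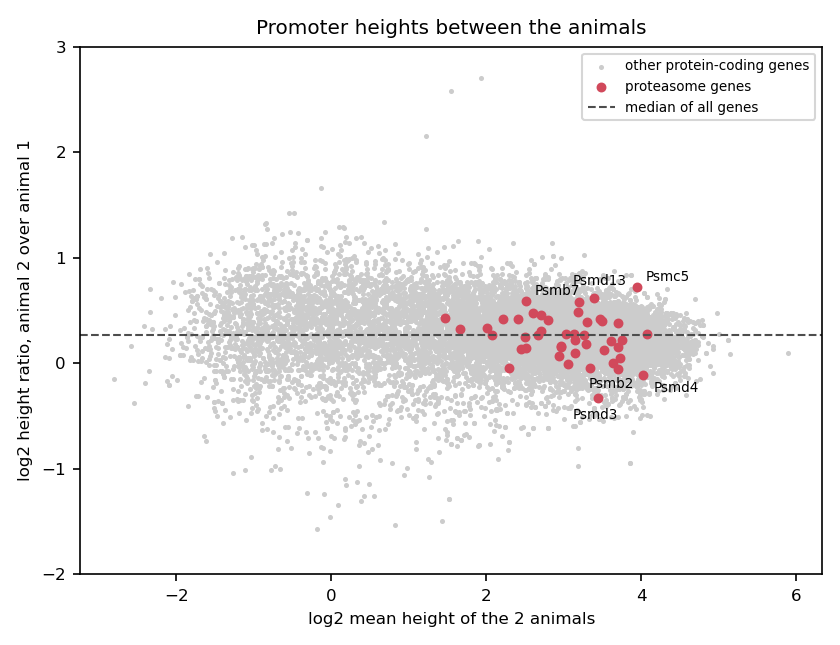
Log2 ratio of promoter height, animal 2 over animal 1 (y axis), against log2 of the mean height (x axis), for 45 proteasome genes (red) and all other protein-coding genes open in both animals (grey). The dashed line is the median of all genes, 0.27, and the 6 labelled genes are the 3 farthest from it in each direction.

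The peaks sat close to the start sites. The midpoint was a median of 26 bp from the nearest TSS in animal 1 and 25 bp in animal 2, against 58 and 56 bp over all genes. It was within 150 bp for 43 of 45 genes in each animal (95.6%). Over all genes the share was 77.2% and 77.0%, and among 3722 other genes with a mean height between the quartiles of the proteasome genes it was 85.7% and 85.8%. That height-matched set, used again below, was chosen after the values were seen. The exceptions were Psme2, above, and Psmg2, at -268 and -278 bp. Both of those peaks are shared with a divergent gene. The peaks were not wider than others, with medians of 220 and 200 bp that equal those of all genes. The 200 bp around the peaks had a median GC content of 62.5%, against 64.5% for all, and a median of 17 CpG, as for all. Psmd1, a scaffold subunit of the 19S base, was lowest with 47% and 4 CpG.

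Of the 45 promoters, 10 are shared with a coding gene that starts within 1 kb on the opposite strand, which is 22.2% of 45 against a background of 17.7%. The pairs and the distances of their closest starts were Psma2 with Mrpl32 (75 bp), Psma4 with AY074887 (106 bp), Psma7 with Ss18l1 (76 bp), Psmb1 with Tbp (137 bp) and Psmc2 with Dnajc2 (32 bp). The other pairs were Psmc5 with Ftsj3 (75 bp), Psmd10 with Atg4a (179 bp), Psmd13 with Sirt3 (99 bp), Psme2 with Rnf31 (595 bp) and Psmg2 with Cep76 (263 bp). In each of these the height cannot be assigned to either gene alone. Sharing with a promoter of any gene, coding or not, was seen for 14 of 45 (31.1%) and for 32.3% of all genes.

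All 45 peaks held a footprint in both animals, where the background was 96.2%. There were 189 footprints in animal 1 and 183 in animal 2, or 4.20 ± 1.18 and 4.07 ± 1.54 per peak (SD across the 45 peaks). All genes had 3.95 and 3.72 per peak, and other genes whose height lay between the quartiles of the proteasome genes in that animal 4.31 and 4.06. The number was thus close to that at similar height. The footprints were often found at the same place in both spleens. Of those of animal 1, 78.3% overlapped a footprint of animal 2 by 1 bp or more, and 81.4% the other way, against 68.0% and 70.4% for all genes. For the genes of similar height the shares were 72.6% and 77.2%. The median footprint was 17 and 18 bp long, against 13 and 15 bp for all genes and 16 and 18 bp at similar height.

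**Figure D4:**
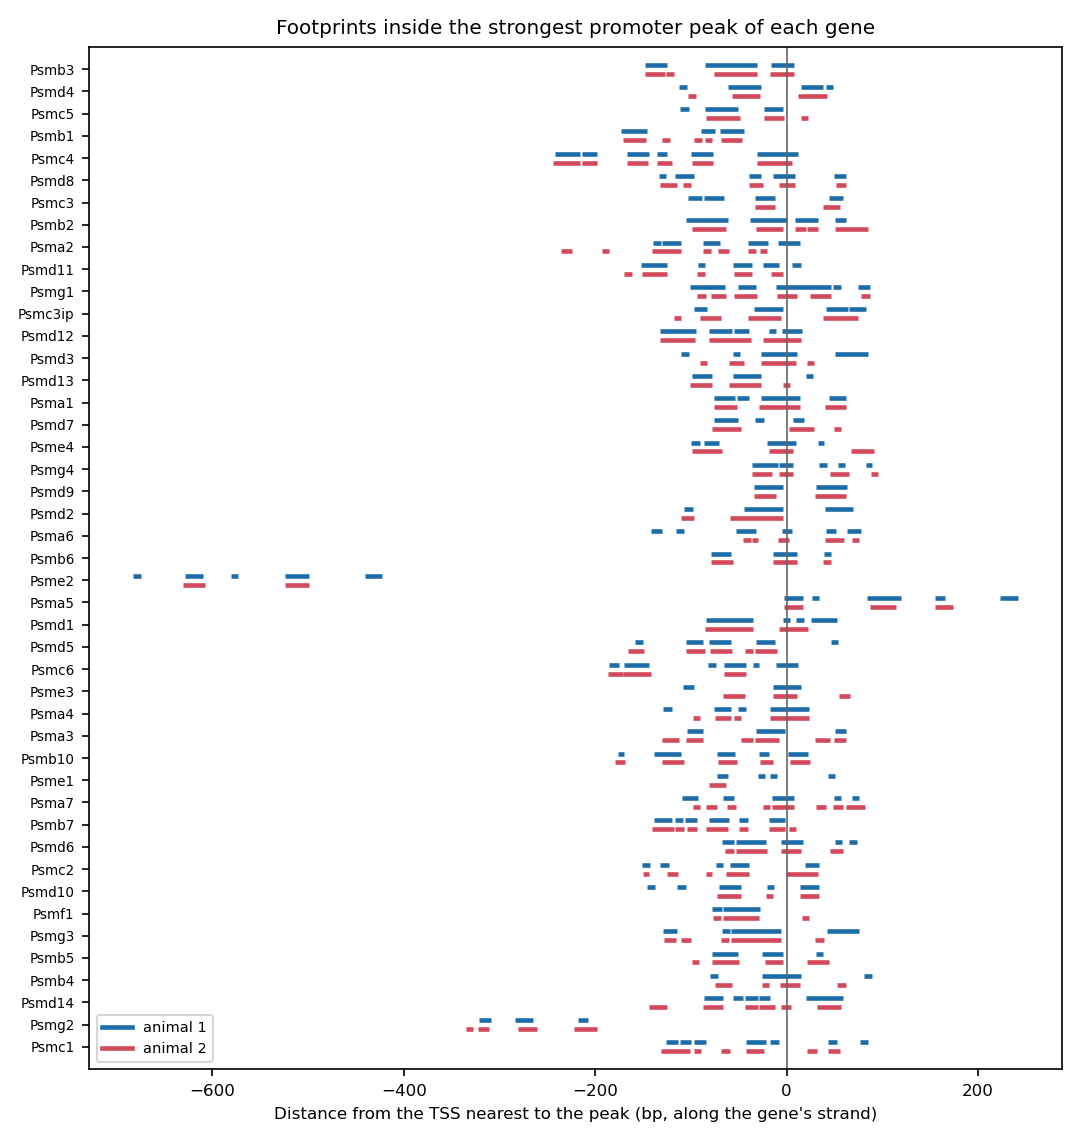
Footprints inside the strongest promoter peak of the 45 open genes, ordered by mean height from top to bottom, in animal 1 (blue) and animal 2 (red), by distance from the TSS nearest to the peak (x axis, bp along the strand of the gene). Most lie between -100 and 100 bp, and those of Psme2 and Psmg2 lie farther upstream.

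Footprints counted only inside peaks that sat close to the start, which limits where they could lie. Their positions were not computed over all genes, so the shares here have no background. The 100 bp upstream of the TSS held 47.6% of the footprints in animal 1 and 52.5% in animal 2, and the 100 bp after it 28% and 25.7%. From -300 to -100 bp the share was 19.6% and 18.6%, and the median position was -41.5 and -43.5 bp. Psma7, an alpha subunit, had 5 footprints in animal 1 and 8 in animal 2, Psmb7 had 6 and 7, and Psmc1 had 7 and 6. These had the most by the mean of the animals. Psmc1 had the lowest open promoter, so many footprints did not go with a high peak there. Its peak was wider than most, 360 bp in animal 1 and 240 bp in animal 2, against medians of 220 and 200 bp. Whether width accounts for the count was not tested. Psmd9, a chaperone of the 19S base, had the fewest with 2 and 2, and Psme1 had 4 and 1.

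Of 15 consensus motifs, searched on both strands in footprints widened by 5 bp on each side, ETS differed most in share from the background. It was matched in footprints of both animals for 12 of 45 genes (26.7%), against 9.16% of all genes with footprints and 12.3% of those of similar height. The genes were Psma6, Psmb7, Psmb10, Psmc1, Psmc6, Psmd6, Psmd7, Psmd11, Psmd14, Psme3, Psme4 and Psmg1, from the core, the 19S particle, the activators and the chaperones. Without widening, the count was 7 (15.6%), against 4.8% of all genes and 7.12% at similar height. The same letters were present, footprint or not, in 15 of 40 promoters of the RefSeq table (37.5%), which holds 250 bases before to 50 after each start, against 13.4% of all promoters there. That background is 16539 genes, more than the 13116 open in both animals, so it includes genes without a promoter peak. Window shares among open genes alone are not given, here or below. The median height of the 12 genes was 7.44 in animal 1 and 8.05 in animal 2, close to the 7.84 and 9.46 of all genes with such a match. A match is a run of letters and does not show which factor, if any, was bound.

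**Figure D5:**
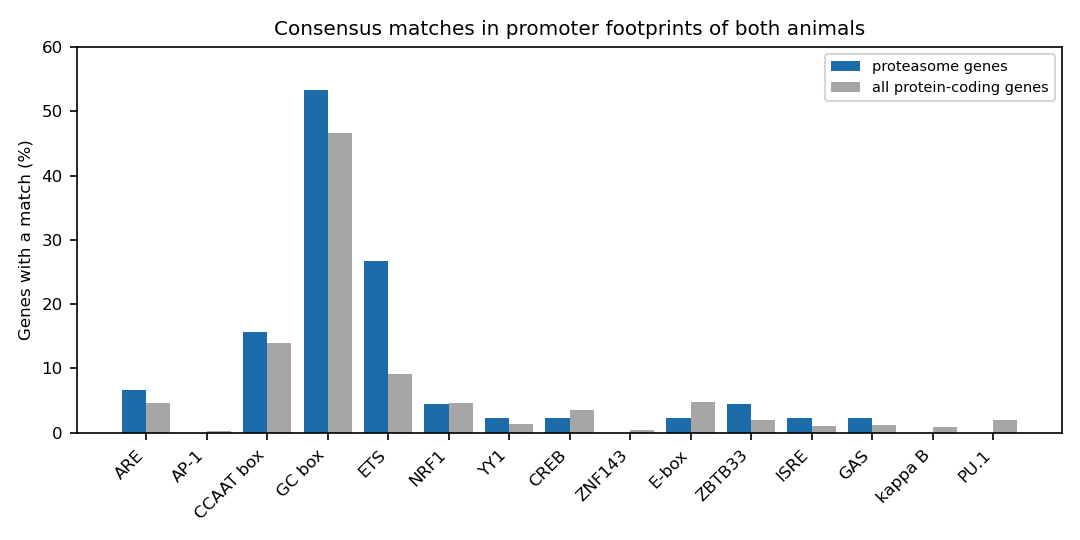
Share of genes (y axis, percent) with a match to each of 15 consensus motifs (x axis) in a promoter footprint of both animals, for 45 proteasome genes (blue) and 12616 protein-coding genes with footprints in both (grey). The bars for ETS stand at 26.7% and 9.16%, and those for the GC box, the most frequent motif, at 53.3% and 46.7%.

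The commonest promoter motifs were at shares near the background. The GC box was matched for 24 of 45 genes (53.3%), against 46.7% of all genes and 53% at similar height. The CCAAT box was matched for 7 genes (15.6% against 13.9%), namely Psma3, Psma5, Psmb2, Psmb3, Psmc3ip, Psmd4 and Psme3. Both a GC box and an ETS match were held by 8 genes (17.8%), against 4.75% of all genes and 5.94% at similar height. A CCAAT box with an ETS match was held by 1 gene, against 1.19% of all. None held a CCAAT box with a GC box, against 8.16% of all genes. The 7 CCAAT genes had median heights of 9.75 and 12.7 and the 24 GC box genes 7.76 and 10.2. All genes with these matches stood at 10.04 and 11.5 for CCAAT and at 8.10 and 9.84 for the GC box. Over whole promoter windows the GC box was present in 22 of 40 proteasome promoters (55%) and 51% of all. CCAAT was present in 14 of 40 (35%) and 42.1%.

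The ARE was matched for 3 of 45 genes, Psmb5, Psmb6 and Psmd9, or 6.67% against a background of 4.6%. The first pair are constitutive catalytic subunits and the match lay directly upstream of the start in each, as printed above. With footprints widened by 10 bp the count was 8 (17.8%), against 6.15% of all genes and 7.04% at similar height, so the ARE count depends on where a footprint is taken to end. Over promoter windows the letters were found in 6 of 40 proteasome promoters (15%) and in 15% of all. The AP-1 motif (TGANTCA), some of whose matches overlap ARE letters, was matched in no gene, against 0.349%.

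The remaining motifs were each matched in at most 2 genes. NRF1, here the nuclear respiratory factor (GCATGCGC) and not NFE2L1, was matched in Psma2 and Psmg1, against 4.65% of all genes. ZBTB33, a factor that reads a palindrome of CG letters, was matched in Psmb2 and Psmd5, against 1.96%. Single genes held YY1 (AAGATGGC, in Psmd7, background 1.37%), CREB (in Psmb2, 3.55%) and the E-box (CACGTG, in Psma4, 4.76%).

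With footprints widened by 5 bp, motifs of interferon and immune signalling were each matched in at most 1 gene. They were also infrequent over all genes. The interferon-stimulated response element (ISRE, GAAANNGAA) was matched in Psmb4 (2.22% of 45, against 1.01%). The gamma-activated sequence (GAS, TTCNNNGAA) was matched in Psmd2 (2.22%, against 1.23%). With footprints widened by 10 bp, ISRE was matched in 3 genes (6.67%, against 1.48%) and GAS in 2 (4.44%, against 1.74%). In the strongest peaks of Psmb10, Psme1 and Psme2, genes known to be raised by interferon, neither motif was matched in footprints of both animals. The separate peak at the Psme2 start and the weaker peak of Psmb10 were not searched in this main setting. With the most 5' TSS only, the weaker Psmb10 peak was searched in place of the strongest, and ISRE was matched in 2 genes. Psmb10 was the only gene still open whose height changed in that setting, so the added match is in its weaker peak. The share over all genes in that setting is not given. The kappa B motif (GGGNNTTTC, 0.904%), the PU.1 motif (GAGGAAG, 2.02%) and ZNF143 (ACTACAATT, 0.436%) were matched in none of the 45. Absence says only that these letters were not under a shared footprint of the strongest peak. In the wider promoter windows ISRE letters were present in 7 of 40 proteasome promoters (17.5%) and 9.57% of all. PU.1 letters were present in 5 of 40 (12.5%) and 15.2%. Footprints of both animals held none of the 15 motifs in 7 genes (15.6%), against 34.8% of all genes and 23.8% at similar height. They were Psmc2, Psmd1, Psmd3, Psmd13, Psmf1, Psmg2 and Psmg3.

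Peaks farther away were somewhat more frequent around proteasome genes than around all protein-coding genes. The latter include genes without a promoter peak, since 59.8% were open in both animals, and open genes alone were not counted. Between 1 and 50 kb from the most 5' start the median was 7 peaks in each animal, over all 48 genes, against 5 in animal 1 and 4 in animal 2 over all protein-coding genes. Within 20 kb the medians were 2 and 2 against 1 and 1. Leaving out peaks near any TSS they were 3 and 3 against 2 and 2. Psmb2 had none in either animal. Psmb3 had most in animal 1, with 24, and Psmd9 in animal 2, with 34, counted around a start far upstream of the Psmd9 peak.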

How the data were processed

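The data are DNase-seq libraries of 2 spleens. Per the labels and the deposited file listings, the authors derived peaks, footprints and intervals of cut rate on mm10 from each library alone. Not given in the sources used here are the aligner, the callers and their thresholds. Peak height is the signal the authors deposited, a density of DNase cuts whose scaling is not stated, and cut totals per library are not given, so counting error was not modelled. The cut-rate files the authors deposited give an FDR, a q-value, for short intervals, all under 0.05. The p-value column of the deposited footprint files holds the constant 0.01 and was not used. The longer lists held 79246 peaks in animal 1 and 77231 in animal 2, with median heights of 0.888 and 1.05, and 211394 and 215907 footprints.

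Genes and TSS were from GENCODE M21 on chromosomes 1 to 19, X and Y. Footprints counted when wholly inside a gene's strongest promoter peak. Sequences were read from RefSeq's GRCm38.p6. Analyses used python 3.11.15, numpy 2.4.6 and pandas 2.3.3, and the code was tested on simulated data. Alternatives were another promoter width, the most 5' TSS, the shorter list, the higher 50% of the peaks, peak choice, footprint rules and leaving out an animal. The members and lists were chosen with earlier results of these data known. Values in each animal were given by rule for catalytic, tissue-specific and activator genes, Psmf1, Psmc3ip, and the 3 highest, lowest, most deviating and most footprinted genes. They were also given for genes without a peak and genes with an ARE. Others were named after their values were seen.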

Additional observations from a re-analysis of the deposited data

How the results depend on the processing

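The count of 45 open genes was the same in 8 of 9 alternatives and 41 with the most 5' TSS only, which lost Psma6, Psmd5, Psmd9 and Psmf1. Taking the peak nearest to a TSS could not change the count, since it picks among the same peaks. Nor could the higher 50% of the peaks, since every strongest proteasome peak was above the list medians of 0.888 and 1.05. The ratio of the median height to that of all genes, 1.43 as the mean of the animals, was 1.45 within 2 kb, 1.45 with the most 5' TSS, 1.29 in the shorter list and 1.71 with the peak nearest to a TSS. It ran from 1.41 to 1.44 when 1 animal was left out, and the median height of 8.73 from 7.94 to 9.53. The mean of 4.13 footprints was 4.60 when footprints only had to overlap the peak, and the median of 7 distal peaks was 2 within 20 kb and 3 without peaks near any TSS. With footprints widened by 10 bp, ARE matches went from 3 to 8 (17.8%, against 6.15% of all genes). ISRE went from 1 to 3 (6.67%, against 1.48%), GAS from 1 to 2 (4.44%, against 1.74%) and PU.1 from 0 to 1 (2.22%, against 3.78%). Without widening, ETS went from 12 to 7 (15.6%, against 4.8%). ZBTB33 then went from 2 to 1 (2.22%, against 1.77%) and GAS from 1 to 0 (0%, against 0.713%). With footprints that overlap the peak, YY1 and GAS were each matched in 2 genes. With the most 5' TSS, ZBTB33 was matched in 1 gene and ISRE in 2. Shares over all genes are not given for overlapping footprints or the most 5' TSS. Using 1 animal alone gave 4 to 5 genes for ARE, 1 to 2 for the E-box, 1 to 3 for ISRE, 1 to 2 for GAS and 0 to 1 for PU.1. ISRE was matched in 2.22% against 1.77% of all genes in animal 1, and in 6.67% against 1.45% in animal 2. For ARE these shares were 8.89% against 6.12% and 11.1% against 6.06%, and for GAS 4.44% against 1.79% and 2.22% against 1.7%. For the E-box they were 2.22% against 5.65% and 4.44% against 6.29%, and for PU.1 0% against 3.61% and 2.22% against 3.24%. The mean height of a single gene stayed within 1 SD of its 2 animals for all 45 genes within 500 bp or 2 kb, in the shorter list and in the higher 50% of the peaks. With the most 5' TSS it did so for 40 of 41, and Psmb10 was at 2.58. With the peak nearest to a TSS, an alternative added for single genes after seeing the data, it did so for 41 of 45. The others were Psmb1 at 9.12, Psmb10 at 2.58, Psmd1 at 4.23 and Psme2 at 4.76. With 1 animal the widest change was that of Psmc5, from 11.7 to 19.3. The causes were not tested. No paired analysis was possible because there is 1 group. Depth and background cut rates are unknown, so low peaks cannot be given an error.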
